A study of Oryza sativa Japonica Group with 6 samples.

Results

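The 35 genes described here encode the nuclear-made proteins of the photosynthetic thylakoid membrane that capture light and carry electrons, out of 55801 loci in the deposited tables. They were listed by name, with a rule that uses no measured value: 8 Lhcb genes of the photosystem II antenna, 2 PsbS genes, 6 Lhca genes of the photosystem I antenna, 9 photosystem I subunits (PsaD, E, F, G, H, K, L, N and O), 3 oxygen-evolving subunits of photosystem II (PsbO, P and Q), PetC, plastocyanin, ferredoxin, 2 ferredoxin-NADP reductases (FNR) and the ATP synthase subunits AtpC and AtpD. Earlier results of these data were, however, known when the 35 were chosen. RNA came from seedlings of rice (Oryza sativa, cultivar Nipponbare) that were 14 days old, untreated, and grown in chambers under what the labels call an SD photoperiod. Wild type (WT, 3 libraries) was compared with the mutant osino80-2, called osino80 (3 libraries), which is named for OsINO80, a chromatin remodelling ATPase; the sources used here do not state the kind of mutation. Whether each library is from its own plants is not in the labels, so every p-value rests on library-to-library spread that may be purely technical.

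Libraries held 61426662 to 73293481 counts. The locus published as OsINO80 (LOC_Os03g22900) had 119, 116 and 121 CPM in WT replicates 1 to 3 and 59.9, 61.1 and 60.8 CPM in osino80, a log2 fold change of -0.97 ± 0.030 (± is the SE; adjusted p by edgeR 2.56e-115). CPM are counts scaled to library size with TMM, edgeR's scaling factor. As for tissue, the 3 Rubisco small subunit loci, markers of green leaf, summed to 31049 to 31382 TPM in WT and 29128 to 29747 TPM in osino80. TPM, the length-normalised values as deposited, are used wherever genes are compared with each other. The 4 root markers (Lsi1, Lsi2, RCc3 and PIP2.5) summed to 16.4 to 17.4 TPM in WT and 20.9 to 21.8 in osino80. Most of this was Lsi1, with 14.7 to 15.6 TPM in WT and 19.0 to 20.2 TPM in osino80. RCc3 and PIP2.5 showed no clear change (adjusted p by edgeR 0.974 and 0.935). Lsi2 had 12, 14 and 8 counts in WT and 0 in each osino80 library. The part of these marker genes in the results was not tested, and in bulk seedling RNA fewer cells of a type and less RNA per cell cannot be told apart.

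In the thylakoid membrane, chlorophyll-binding Lhcb and Lhca proteins pass light energy to photosystem II and photosystem I. Photosystem II oxidises water at a cluster shielded by PsbO, PsbP and PsbQ; electrons then flow through the cytochrome b6f complex (PetC is its Rieske iron-sulphur subunit) and plastocyanin to photosystem I, and from there through ferredoxin and FNR to NADPH. The proton gradient so built drives ATP synthase. PsbS senses the acidity of the thylakoid lumen and switches the photosystem II antenna to heat dissipation, a photoprotective response called non-photochemical quenching.

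Most of these genes were slightly higher in osino80. Of the 35, all of which were abundant enough to be tested, 23 rose, 3 fell and 9 did not pass the test (edgeR quasi-likelihood test over 24914 genes, Benjamini-Hochberg adjusted p under 0.05). Among all tested genes 37.6% were called, 18.4% as higher and 19.1% as lower. The rises were small, from 2.88% to 15.7%, and the median log2 fold change of the 35 was 0.068, against 0.0017 over all tested genes. The genes that rose were all 9 photosystem I subunits, 6 of 8 Lhcb, 4 of 6 Lhca, PsbO, PsbP, plastocyanin and ferredoxin. The 3 that fell were PsbS2, Lhca6 and FNR1. PsbS2 changed most: its transcript dropped by 40.4%. CPM of WT and osino80 did not overlap for 29 of the 35, against 45.7% of all tested genes.

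In summed TPM the 35 genes took 12.4% of the TPM total in WT and 13.2% in osino80. The sums were 123922, 123261 and 123907 TPM in WT and 133606, 132318 and 131151 TPM in osino80, so that every osino80 library stood above every WT library. By complex, the summed TPM was 9.16% higher in osino80 for photosystem I, 7.70% for Lhcb, 7.04% for the electron carriers with FNR, 6.40% for Lhca and 3.96% for the oxygen-evolving subunits. For the ATP synthase pair the sums were 1462, 1456 and 1471 TPM in WT and 1475, 1461 and 1455 in osino80, which overlap. The PsbS pair had a summed TPM of 1553, 1529.9 and 1549 in WT and 1427, 1393 and 1359 in osino80, lower in every osino80 library. These sums are descriptions and carry no test.

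**Figure D1:**
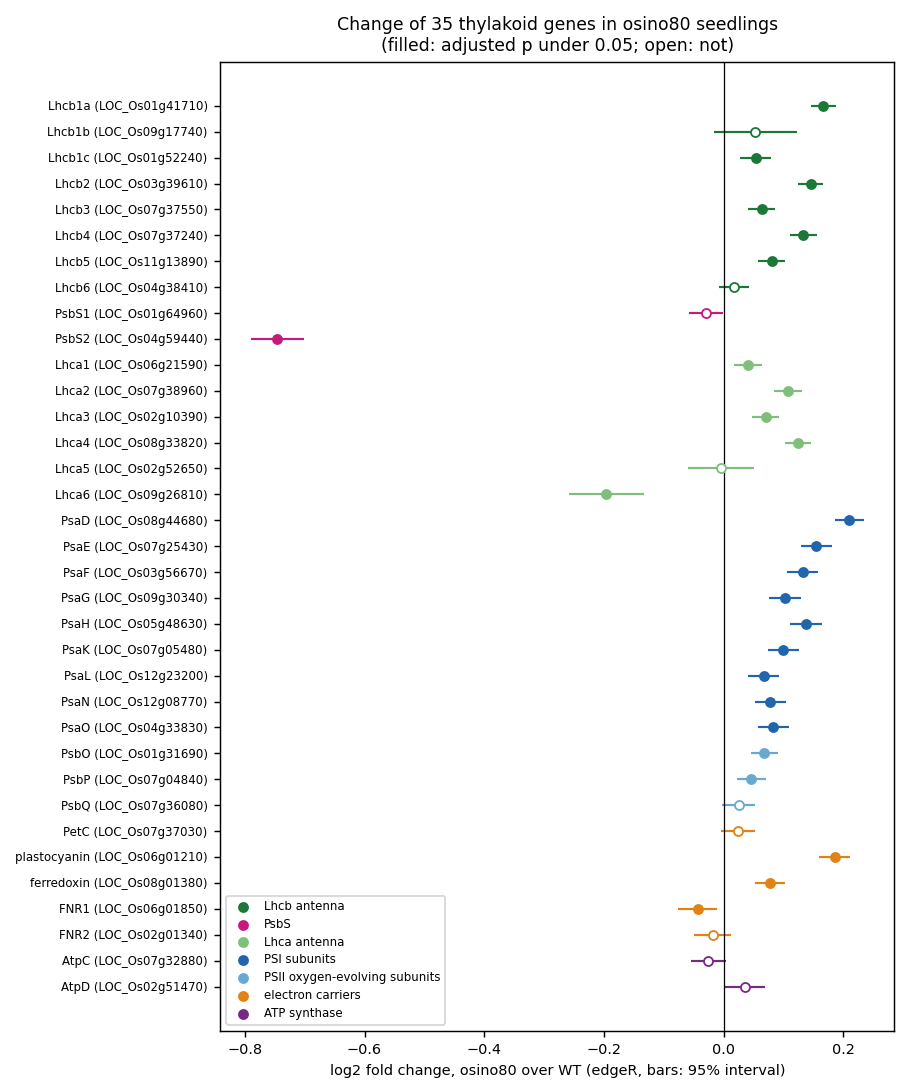
Log2 fold change (osino80 over WT) of each of the 35 genes, coloured by complex, with its 95% interval from the edgeR fit; filled points passed the test and open points did not. All 9 photosystem I subunits lie to the right of 0, and PsbS2 at -0.75 stands far to the left of every other gene.

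Of the 8 Lhcb genes of the photosystem II antenna 6 rose, by up to 12.3%, and Lhcb1b and Lhcb6 did not pass. The trimers of its main part, LHCII, are built from Lhcb1, Lhcb2 and Lhcb3, and 3 of the loci here are of the Lhcb1 type, called Lhcb1a (LOC_Os01g41710), Lhcb1b (LOC_Os09g17740) and Lhcb1c (LOC_Os01g52240) for this description. Lhcb1a, the most abundant of the 35, had 8277, 8163 and 8375 CPM in WT and 9438, 9279.7 and 9137 CPM in osino80. The groups were well apart, with a log2 fold change of 0.17 ± 0.011 (SE; adjusted p by edgeR 2.55e-41). Lhcb1b had 9362, 9052 and 9148 CPM in WT and 9823, 9542 and 9234 CPM in osino80. Here the lowest osino80 library lay below the highest WT library, and the log2 fold change of 0.053 ± 0.027 did not pass (adjusted p by edgeR 0.203). The call on Lhcb1b depended on the setting: the edgeR adjusted p was 1.86e-05 with robust=FALSE, 4.45e-05 without the low-count filter and 9.81e-06 on halved counts. Limma voom gave 2.87e-06. It also passed without WT replicate 1 (5.80e-07), WT replicate 2 (0.00901), osino80 replicate 1 (0.0443) or osino80 replicate 3 (1.46e-08). Over all alternatives it ran from 1.46e-08 to 1. Lhcb1c had 2079.5, 2043 and 2068 CPM in WT and 2178, 2152 and 2094 CPM in osino80. Its groups did not overlap and it rose (log2 fold change 0.053 ± 0.013, adjusted p by edgeR 2.81e-04).

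Within the Lhcb1 trio, Lhcb1a supplied 44.7%, 45.1% and 45.5% of the summed TPM in WT, and 46.7%, 46.8% and 47.5% in osino80. The share of Lhcb1b was 41.2% to 41.9% in WT and 39.5% to 40.5% in osino80. Lhcb1 copies are similar in sequence, and how reads that fit several copies were treated is not given in the sources used here, so which copy a read came from is uncertain.

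Lhcb2 (LOC_Os03g39610), the LHCII protein that with Lhcb1 is phosphorylated when the antenna moves between photosystems, rose by 0.15 ± 0.011 on the log2 scale (SE; adjusted p by edgeR 3.84e-34). Its osino80 libraries held 8316, 8177 and 8149.5 CPM, all above the WT libraries at 7451, 7378 and 7443 CPM. Lhcb3 (LOC_Os07g37550), a trimer subunit that lacks that phosphorylation site, had 4512, 4555 and 4671 CPM in WT and 4859.6, 4797 and 4701 CPM in osino80. It too rose without overlap (log2 fold change 0.064 ± 0.012, adjusted p by edgeR 6.97e-07). The minor antenna proteins Lhcb4 (CP29, LOC_Os07g37240), Lhcb5 (CP26, LOC_Os11g13890) and Lhcb6 (CP24, LOC_Os04g38410) link the trimers to the photosystem II core. Lhcb4 had 5231, 5245 and 5268 CPM in WT and 5809, 5787 and 5674 CPM in osino80, a clear rise (log2 fold change 0.13 ± 0.011, adjusted p by edgeR 5.51e-27). Lhcb5 had 5349, 5388 and 5503 CPM in WT and 5760.4, 5789 and 5619 CPM in osino80, also a rise with no overlap (log2 fold change 0.080 ± 0.011, adjusted p by edgeR 7.21e-11). Lhcb6 changed least of the 8: it had 2699.7, 2693 and 2700.5 CPM in WT and 2773, 2743 and 2675 CPM in osino80, overlapping ranges, with a log2 fold change of 0.017 ± 0.012 (95% interval -0.0071 to 0.042); it did not pass (adjusted p by edgeR 0.286).

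The PsbS pair parted. PsbS2 (LOC_Os04g59440) fell from 17229, 17152 and 14502 counts in WT replicates 1 to 3 to 9165, 8818 and 9283 counts in osino80, which is 236, 247 and 237 CPM against 147, 142 and 140.0 CPM. Every osino80 library was below every WT library by a wide gap, with a log2 fold change of -0.75 ± 0.022 (SE; adjusted p by edgeR 1.15e-117). PsbS1 (LOC_Os01g64960), the more abundant copy at 1221 ± 22.3 TPM in WT against 323 ± 9.92 TPM for PsbS2 (SD, n = 3), had 1209, 1169 and 1200.2 CPM in WT and 1204, 1167 and 1137 CPM in osino80. Its groups overlapped, and the log2 fold change of -0.029 ± 0.015 did not pass (adjusted p by edgeR 0.109), although it did with limma voom (0.0356) and without WT replicate 2 (0.0345) or osino80 replicate 1 (0.00461) (all alternatives gave 0.00461 to 1).

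The ratio of PsbS2 to PsbS1 counts, which does not depend on the scaling of libraries, was 0.195, 0.211 and 0.198 in WT and 0.122, 0.122 and 0.123 in osino80. The ratios did not overlap, and the log2 difference was -0.72 (exact permutation test, two-sided, p = 0.1, the smallest that 3 against 3 allows). The nearest tested loci by number on either side of PsbS2, LOC_Os04g59430 at -0.035 ± 0.37 and LOC_Os04g59450 at -0.014 ± 0.033 in log2 fold change, were not called. Among all tested genes, 7.59% changed by at least as much as PsbS2 in either direction. PsbS2 was the 1 member of 35 that passed a test against a change of 1.2-fold (edgeR glmTreat, adjusted p 2.45e-69), which 4.02% of all tested genes passed as lower and 4.64% as higher; none of the 23 rises passed it.

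**Figure D2:**
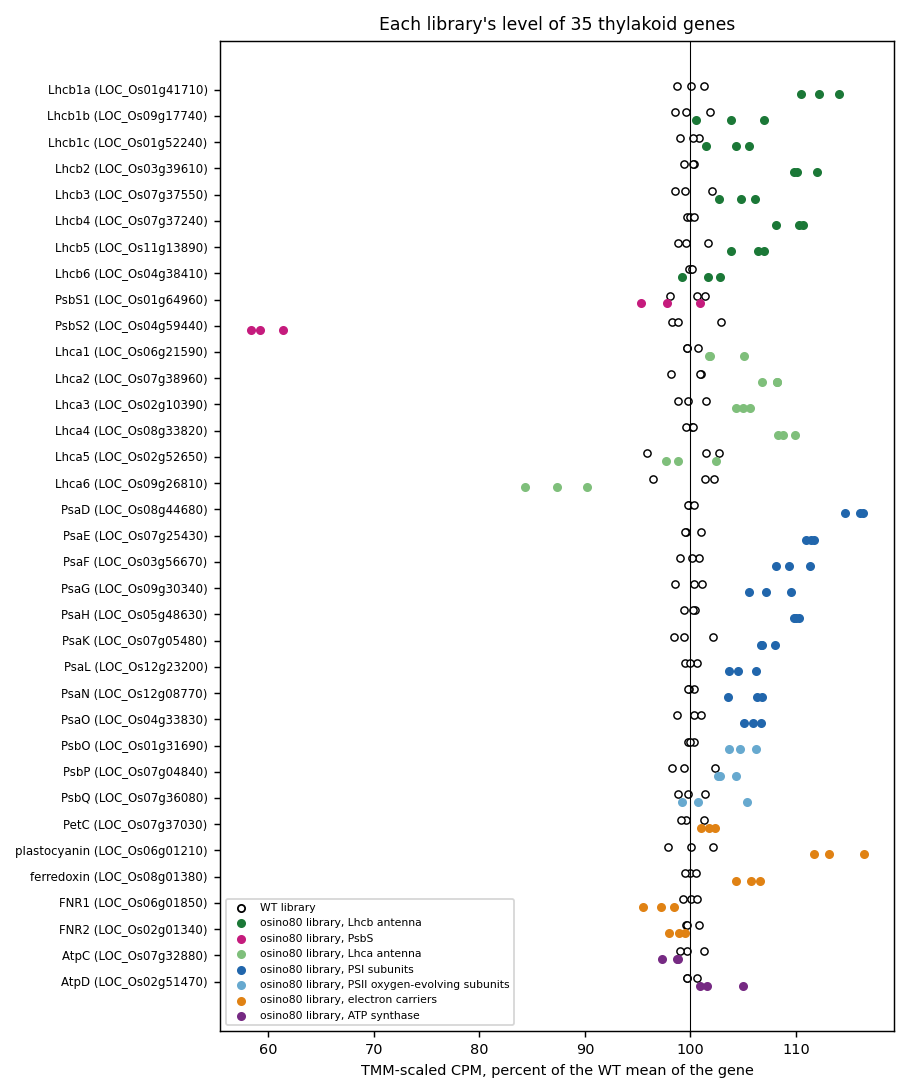
Each library's TMM-scaled CPM for the 35 genes as a percentage of that gene's WT mean, with WT libraries as open circles and osino80 libraries as filled circles coloured by complex. For 29 of the 35 genes the range of the filled circles and the range of the open ones do not overlap, and the osino80 libraries of PsbS2 stand far to the left of all others.

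At the oxygen-evolving side of photosystem II, PsbO (LOC_Os01g31690), which stabilises the manganese cluster, had 5243, 5273 and 5256 CPM in WT and 5583, 5452 and 5503 CPM in osino80. All osino80 libraries were higher, and it rose by 0.068 ± 0.011 on the log2 scale (SE; adjusted p by edgeR 2.36e-08). PsbP (LOC_Os07g04840) had 2920.2, 2888 and 3007 CPM in WT and 3065, 3021 and 3014 CPM in osino80. In CPM the lowest osino80 library stood just above the highest WT library. In TPM the groups overlapped, with osino80 replicate 2 at 6758 and WT replicate 3 at 6769. By the count test the gene rose (log2 fold change 0.046 ± 0.012, adjusted p by edgeR 0.00106). That call was lost in 2 alternatives beside the 1.2-fold test, without WT replicate 2 (adjusted p by edgeR 0.0679, and 0.274 on log2(TPM + 1) without a filter by limma; all alternatives 1.76e-07 to 1). PsbQ (LOC_Os07g36080), like PsbP an extrinsic protein that helps retain calcium and chloride, had 2211, 2177 and 2156 CPM in WT and 2299, 2197 and 2164 CPM in osino80. Its groups overlapped, and the log2 fold change of 0.025 ± 0.014 (95% interval -0.0019 to 0.052) did not pass, except without osino80 replicate 3 (adjusted p by edgeR 0.0124, all alternatives 0.0124 to 1).

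All 9 photosystem I subunits rose, and in none did the groups overlap. The largest rise of the 35 genes was that of PsaD (LOC_Os08g44680), the stromal subunit that docks ferredoxin: 2742, 2739 and 2756 CPM in WT became 3194, 3188 and 3148 CPM in osino80, a rise of 15.7% (log2 fold change 0.21 ± 0.012, SE; adjusted p by edgeR 1.59e-48). Its partner on the stromal side, PsaE (LOC_Os07g25430), had 1973, 1999 and 1969.8 CPM in WT and 2206, 2212 and 2198 CPM in osino80, the next largest rise of the complex (log2 fold change 0.16 ± 0.013, adjusted p by edgeR 7.48e-27). PsaH (LOC_Os05g48630), at the docking side for mobile LHCII, had 1507, 1492 and 1504 CPM in WT and 1656, 1648 and 1652 CPM in osino80. It rose by 0.14 ± 0.014 in log2 terms (adjusted p by edgeR 3.35e-20). PsaF (LOC_Os03g56670), which binds plastocyanin on the lumen side, had 1706, 1675 and 1693 CPM in WT and 1883, 1849.5 and 1828 CPM in osino80, and rose (log2 fold change 0.13 ± 0.013, adjusted p by edgeR 3.01e-19). PsaG and PsaK are related membrane subunits near the Lhca belt, and they rose by similar amounts. PsaG (LOC_Os09g30340) had 1792, 1746 and 1777 CPM in WT and 1939.7, 1899 and 1870.4 CPM in osino80 (log2 fold change 0.10 ± 0.013, adjusted p by edgeR 1.72e-12). PsaK (LOC_Os07g05480) had 1926, 1908 and 1979 CPM in WT and 2094, 2069 and 2068 CPM in osino80 (log2 fold change 0.10 ± 0.013, adjusted p by edgeR 3.21e-12).

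PsaO (LOC_Os04g33830), which lies beside PsaL, had 1919, 1951 and 1963 CPM in WT and 2044, 2059.8 and 2075 CPM in osino80, and rose (log2 fold change 0.083 ± 0.013, adjusted p by edgeR 7.83e-09). PsaN (LOC_Os12g08770), a lumenal subunit, had 1864, 1856 and 1854 CPM in WT and 1984, 1976 and 1925 CPM in osino80, and rose (log2 fold change 0.078 ± 0.013, adjusted p by edgeR 7.58e-08). The smallest rise was that of PsaL (LOC_Os12g23200), which neighbours PsaH and PsaO: it went from 1790.0, 1770.3 and 1779 CPM in WT to 1890.3, 1860.0 and 1844 CPM in osino80, 0.067 ± 0.013 on the log2 scale (SE; adjusted p by edgeR 5.17e-06). The spread among libraries of a genotype was low, with coefficients of variation of 0.218% to 1.92% over the 9 subunits, so that rises of this size exceeded it. Of the 2 tested loci numbered next to PsaD, 1 was also higher: LOC_Os08g44750 changed by 0.51 ± 0.18 on the log2 scale (adjusted p by edgeR 0.0167), and LOC_Os08g44650 at -0.054 ± 0.11 did not pass.

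In the photosystem I antenna the abundant genes rose and the scarce ones did not. Lhca1 to Lhca4 form the belt of the complex, and all 4 rose. Lhca4 (LOC_Os08g33820) rose most: it had 5664, 5636 and 5673 CPM in WT and 6216, 6125 and 6151 CPM in osino80, with groups well apart and a log2 fold change of 0.12 ± 0.011 (SE; adjusted p by edgeR 2.81e-24). Lhca2 (LOC_Os07g38960) had 3477, 3472 and 3378 CPM in WT and 3725, 3723 and 3677 CPM in osino80 (log2 fold change 0.11 ± 0.012, adjusted p by edgeR 2.00e-16). Lhca3 (LOC_Os02g10390) had 3675, 3578 and 3612 CPM in WT and 3827, 3779 and 3801 CPM in osino80 (log2 fold change 0.070 ± 0.012, adjusted p by edgeR 6.56e-08). In both genes the osino80 libraries were all above WT. Lhca1 (LOC_Os06g21590) rose least of the 4, with 4385, 4339 and 4338 CPM in WT and 4574, 4434 and 4429.7 CPM in osino80 and again no overlap (log2 fold change 0.041 ± 0.012, adjusted p by edgeR 0.00196). The call on Lhca1 was lost without osino80 replicate 1 (adjusted p by edgeR 0.0626, and 0.219 on log2(TPM + 1) without a filter by limma; all alternatives 9.41e-08 to 1).

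Lhca5 and Lhca6 are low-abundance proteins known from Arabidopsis to link photosystem I to the NDH complex of cyclic electron flow. In WT the locus listed as Lhca5 (LOC_Os02g52650) had 149.6 ± 5.50 TPM and that listed as Lhca6 (LOC_Os09g26810) 111 ± 2.60 TPM (SD, n = 3), against 3099 ± 56.0 TPM for Lhca2, the least abundant of the belt genes. Lhca6 had 81.1, 76.5 and 80.4 CPM in WT and 71.5, 69.3 and 66.9 CPM in osino80. All osino80 libraries were lower, a fall of 12.7% (log2 fold change -0.20 ± 0.032, SE; adjusted p by edgeR 1.86e-08). Lhca5 had 97.8, 105 and 104 CPM in WT and 99.7, 101 and 104 CPM in osino80, overlapping, with a log2 fold change of -0.0047 and a 95% interval of -0.060 to 0.050.

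Among the electron carriers, plastocyanin (LOC_Os06g01210), the copper protein that feeds photosystem I, rose by 13.7%. It had 2128, 2085 and 2039.7 CPM in WT and 2426, 2328 and 2358 CPM in osino80, clear of each other (log2 fold change 0.19 ± 0.013, SE; adjusted p by edgeR 5.91e-33). Ferredoxin (LOC_Os08g01380), which takes the electrons from photosystem I, had 2368, 2357 and 2380.1 CPM in WT and 2523, 2469.6 and 2504 CPM in osino80, and rose without overlap (log2 fold change 0.077 ± 0.013, adjusted p by edgeR 2.37e-08). PetC (LOC_Os07g37030) did not pass at 0.024 ± 0.014, with 1175, 1169 and 1195 CPM in WT and 1201, 1207 and 1192 CPM in osino80 and an overlap of the groups.

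The pair of leaf FNR genes, which encode the enzyme that reduces NADP+, differed little between genotypes. FNR1 (LOC_Os06g01850) had 589, 593 and 596 CPM in WT and 566, 584 and 576 CPM in osino80, a log2 fold change of -0.043 ± 0.017 that passed narrowly (adjusted p by edgeR 0.0283). That call was lost without WT replicate 2 (0.0741), WT replicate 3 (0.0881) or osino80 replicate 1 (0.153) and on TPM (0.0827 with a pseudocount of 1, 0.0825 with 0.1, 0.192 without a filter) (all alternatives gave 0.00689 to 1). FNR2 (LOC_Os02g01340) had 764, 754 and 755 CPM in WT and 749.7, 742 and 754 CPM in osino80 and did not pass (log2 fold change -0.018 ± 0.016, adjusted p by edgeR 0.393). The FNR2 to FNR1 count ratio was 1.30, 1.27 and 1.27 in WT and 1.32, 1.27 and 1.31 in osino80; the log2 difference was 0.025 (exact permutation test, two-sided, p = 0.2).

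Neither ATP synthase gene passed. AtpC (LOC_Os07g32880), the gamma subunit that rotates within the catalytic head, had 916, 910.2 and 931 CPM in WT and 907, 908 and 894 CPM in osino80, with a log2 fold change of -0.025 ± 0.015 (95% interval -0.055 to 0.0045, adjusted p by edgeR 0.189). AtpD (LOC_Os02g51470), the delta subunit that ties the head to the stalk, had 535, 531 and 531 CPM in WT and 559, 537 and 541 CPM in osino80, with a log2 fold change of 0.036 ± 0.017 (95% interval 0.0023 to 0.069, adjusted p by edgeR 0.0858). In both genes the libraries of WT and osino80 did not overlap, AtpC being lower and AtpD higher in osino80 by the values given.

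The order of the 35 transcripts by level was nearly the same in both genotypes. In WT the mean TPM ran from 10321 for Lhcb1a to 111 for Lhca6. After Lhcb1a came Lhcb1b at 9507 TPM, Lhca4 at 7363, Lhcb4 at 6804, PsbP at 6600.1 and Lhcb2 at 6446. The photosystem I subunits lay between 1726 TPM (PsaG) and 4587 TPM (PsaD). Of the 34 pairs of neighbours in this order, the ranges over 3 WT libraries overlapped in 5: plastocyanin with Lhca3, PsaE with Lhcb5, PsaK with PsaN, Lhca2 with Lhcb1c, and PsbQ with PsaH. In osino80 8 genes held another rank, each moved by 1 place: Lhcb2 passed PsbP, PsaD passed Lhca1, plastocyanin passed ferredoxin and PsaH passed PsbQ.

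**Figure D3:**
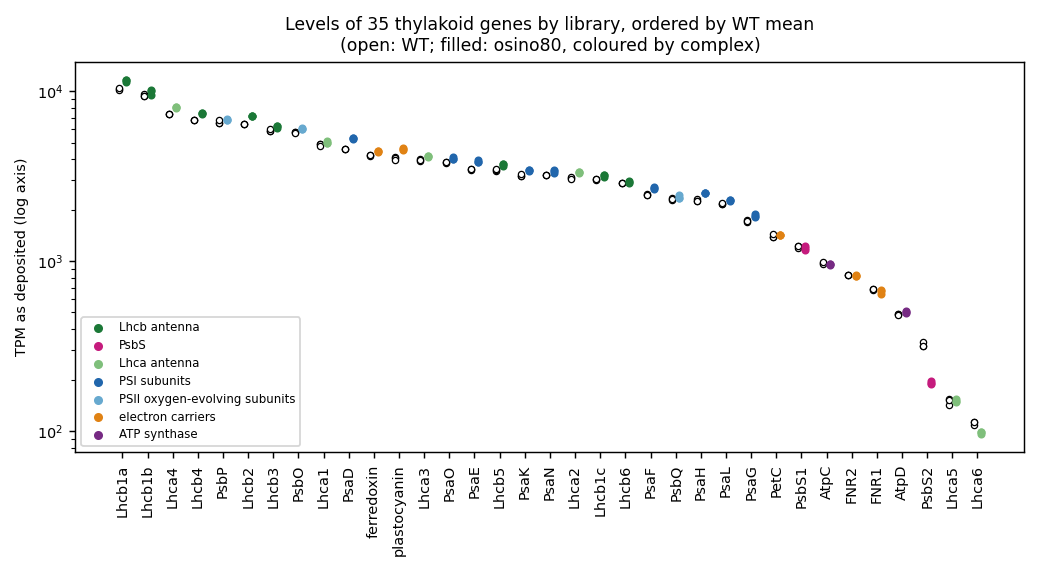
TPM as deposited (log axis) of the 35 genes in each of the 3 WT libraries (open circles) and 3 osino80 libraries (filled circles, coloured by complex), ordered by the WT mean. Levels span 111 to 10321 TPM in WT, and the libraries of a genotype lie close together for every gene.

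Rises went with high levels. Of 28 members with a mean of at least 1000 TPM over the 6 libraries, 23 rose, none fell and 5 did not pass. Of the 7 below that level none rose, 3 fell and 4 did not pass. The SE was 0.028 for Lhca5 and 0.032 for Lhca6 against 0.012 for Lhca1. A rise as small as that of Lhca1 (0.041) was thus harder to call in these scarcest genes. Across the 35 genes, which share the 6 libraries, Spearman's rho between the WT level in TPM and the log2 fold change was 0.625, and 0.594 without PsbS2. Among the 50 other tested genes at or above 1000 TPM, a level chosen after the values were seen, 26.0% were called higher and 38.0% lower, and the median change was -0.027 on the log2 scale. The Rubisco small subunit genes, whose products work in the stroma, are among these: RBCS2 fell by 5.88%, RBCS3 fell by 6.19% and RBCS4 fell by 3.56%, although on log2(TPM + 1) without a filter none of the 3 passed. These copies are close in sequence, so reads may be split among them. Thylakoid genes outside the 35 also stayed among the 50. Of those described below, both PsbR loci and PsbW were called higher, and the ATP synthase b' subunit gene was not called. No test compared the 35 genes with these groups.

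**Figure D4:**
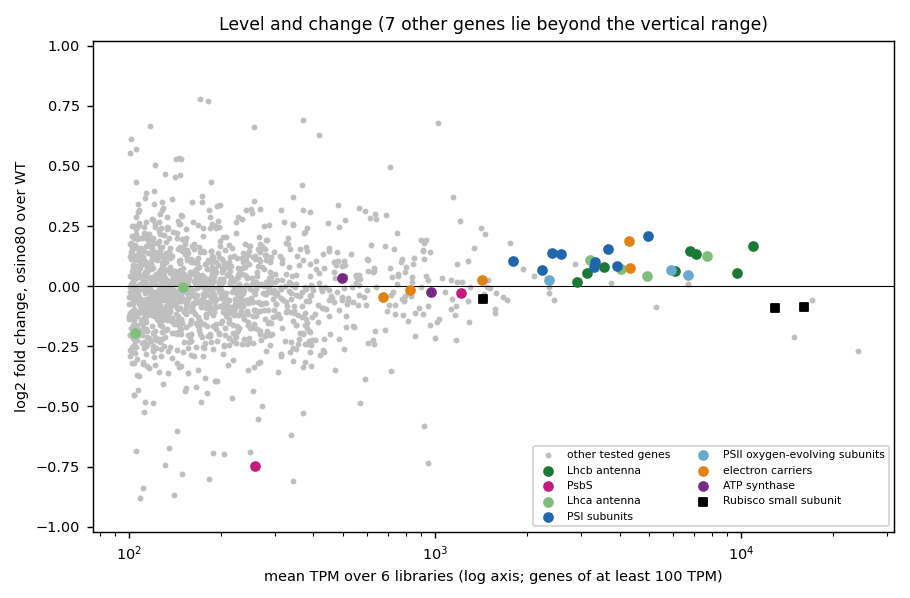
Log2 fold change (osino80 over WT) against mean TPM over the 6 libraries (log axis) for tested genes of at least 100 TPM; coloured points are the 35 thylakoid genes, black squares the 3 Rubisco small subunit genes and grey points other genes, 7 of which lie beyond the vertical range. The 28 members of at least 1000 TPM lie between -0.029 and 0.21, and the Rubisco genes lie below 0.

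A further list of 17 published thylakoid loci outside the 35 was read beside the same background of 18.4% higher and 19.1% lower. Of 16 tested, 6 rose, 3 fell and 7 did not pass. The share that fell was near its background and the share that rose was above it, a difference that was not tested. The locus listed as PsbY had 0 counts in all 6 libraries. PsbR (LOC_Os07g05360), a small photosystem II protein that helps PsbP and PsbQ bind, rose more than any of the 35: it had 1335, 1337 and 1351 CPM in WT and 1704, 1745 and 1757 CPM in osino80, a log2 fold change of 0.37 ± 0.014 (SE; adjusted p by edgeR 1.03e-91). It also passed the test against 1.2-fold (glmTreat adjusted p 6.91e-14). A second PsbR locus (LOC_Os08g10020) rose by 0.13 ± 0.012 and PsbW (LOC_Os01g56680), a subunit of photosystem II supercomplexes, by 0.093 ± 0.013 on the log2 scale. Psb27 at 0.035 ± 0.020, the ATP synthase b' subunit gene at 0.027 ± 0.016, the cyclic electron flow gene PGR5 at -0.0099 ± 0.024, the plastid terminal oxidase gene PTOX at -0.050 ± 0.073 and Lhcb7 at -0.072 ± 0.045 did not pass. STN7, the kinase that phosphorylates LHCII, was at 0.044 ± 0.019 (adjusted p by edgeR 0.0590); it passed in 6 alternatives: with median-of-ratios scaling (0.0469), upper-quartile scaling (0.0425), DESeq2 (0.0404), limma voom (0.0346) or halved counts (0.0385), and without osino80 replicate 2 (0.0328) (all alternatives gave 0.0328 to 1).

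The same list held the pair of enzymes of the xanthophyll cycle, which also takes part in photoprotective quenching. VDE (LOC_Os04g31040), violaxanthin de-epoxidase, makes zeaxanthin in strong light; it had 69.2, 69.3 and 71.8 CPM in WT and 63.0, 62.9 and 64.8 CPM in osino80, and fell by 9.30% (log2 fold change -0.14 ± 0.033, SE; adjusted p by edgeR 1.64e-04). ZEP (LOC_Os04g37619), zeaxanthin epoxidase, turns zeaxanthin back; it had 290.1, 287 and 293 CPM in WT and 352, 352 and 358 CPM in osino80, and rose by 22.0% (log2 fold change 0.29 ± 0.019, adjusted p by edgeR 4.24e-39). In both, no osino80 library fell within the WT range. Neither VDE nor ZEP passed the test against 1.2-fold (for ZEP, glmTreat adjusted p 0.248). These 2 were singled out after their values were seen.

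**Figure D5:**
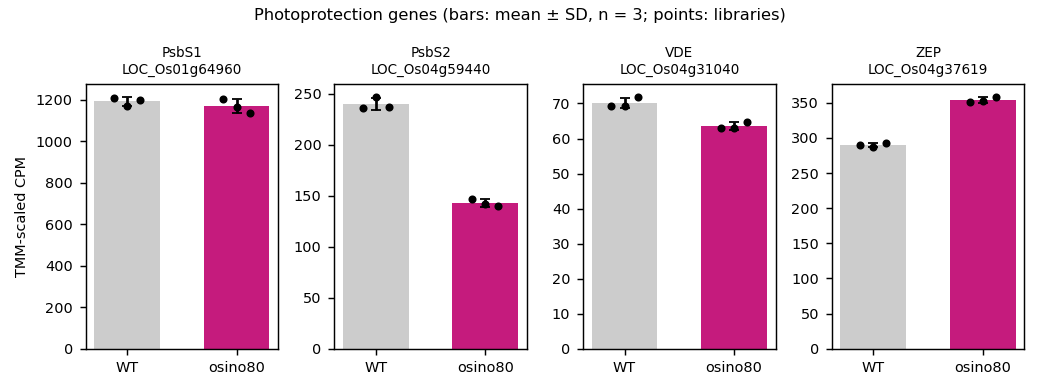
TMM-scaled CPM of PsbS1, PsbS2, VDE and ZEP in WT and osino80; bars show the mean, whiskers the SD (n = 3) and points the libraries, each panel with its own axis from 0. PsbS2 and VDE are lower and ZEP is higher in osino80, while the libraries of PsbS1 overlap.

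Ferredoxin and FNR genes other than the leaf ones in the set were scarcer and moved in both directions. The loci listed as root-type FNR went apart: LOC_Os03g57120 rose by 0.35 ± 0.039 and LOC_Os07g05400 changed by -0.18 ± 0.030 on the log2 scale (adjusted p by edgeR 4.65e-17 and 5.32e-08). Of 3 further ferredoxin loci, LOC_Os05g37140 rose by 0.29 ± 0.058, LOC_Os03g48040 changed by -0.23 ± 0.032 and LOC_Os01g64120 at 0.0024 ± 0.029 did not pass. The leaf ferredoxin of the set had 4199.6 ± 5.76 TPM in WT (SD, n = 3), and these 3 loci 22.5 to 149 TPM. Of the 4 root markers only Lsi1, a silicon transporter gene, was called: it was 27.9% higher in osino80 (log2 fold change 0.35 ± 0.066, adjusted p by edgeR 9.77e-07). The scarcer RCc3 and PIP2.5 showed no clear change (log2 fold changes -0.033 ± 0.64 and -0.036 ± 0.27). Lsi2, too scarce for the test, had counts in WT only. The markers thus gave no common direction, and their part in the values of root-type genes was not tested.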

How the data were processed

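RNA (libraries from a stranded mRNA kit, per the labels) of 3 WT and 3 osino80 libraries was measured. The authors deposited raw counts per gene and TPM normalised per length and per library. The tools named, per the submitters' processing notes, are featureCounts, HISAT2, SAMtools and cutadapt. Not given in the sources used here: versions, build, annotation, strand and multi-mapping settings, and how TPM was made. Of the counts from 1 to 20, 82.4% to 83.65% were even, as when read pairs add 2 counts each, so counting error is larger than the counts alone give. The 35 members and the lists were chosen with earlier results of these data known. Names come from published locus numbers, since the files pair identifiers with no names. The reference gene table (assembly ASM3414082v1) holds 0 of the identifiers. Of 25 members looked up by name it places 9 on the chromosome of the locus number and 1 (PsaG) on another, and 15 were not found. Lhcb1a, Lhcb1b and Lhcb2 were looked up by a shared symbol, LHCP, found on chromosomes 1, 3 and 9. Their matches therefore do not tell Lhcb1 from Lhcb2. No sequences or coordinates are given. Values in each library are given for called members and for the smallest and largest log2 fold change of each complex; list genes are named with their values. The count test was that of edgeR 4.0.16, R 4.3.3 (filterByExpr, TMM, estimateDisp, glmQLFit with robust=TRUE, glmQLFTest) over all 6 libraries, two-sided, Benjamini-Hochberg adjusted over 24914 genes, threshold 0.05. The SE is the log2 fold change divided by the square root of F. Alternatives used DESeq2 1.42.0, limma 3.58.1 (voom, and log2(TPM + pseudocount) on genes of at least 1 TPM), other scalings and filters, halved counts, a test against 1.2-fold and each library left out. Deviations of libraries with the same number correlated at 0.0163, 0.00360 and 0.0277, so numbers were not taken as pairs. No library pair of a group agreed within the sampling noise of single counts (chi-square per degree of freedom 3.59 to 4.03). Counts added in pairs would raise these values by themselves, and that part was not separated.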

Additional observations from a re-analysis of the deposited data

How the results depend on the processing

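Apart from the test against 1.2-fold, 20 of the 26 called members kept their call and direction under all 19 other alternatives, 18 higher and 2 lower (PsbS2 and Lhca6). The exceptions were Lhcb1c, Lhcb3, Lhca1, PsbO, PsbP and FNR1, all of which lost their calls on log2(TPM + 1) without a filter on low values; the cause was not tested. Of the 9 uncalled members 5 gained a call somewhere (Lhcb1b, PsbS1, PsbQ, PetC and AtpD, the last 2 with limma voom). Leaving out single libraries gave 23 to 25 members higher and 2 to 3 lower, and a member median of 0.059 to 0.076; with TPM that median was 0.074 with either pseudocount and without the filter. With single libraries left out, all genes higher numbered 4037 to 4159 and lower 4201 to 4356. Against 1.2-fold, 0 members were called higher and 1 lower, 2 of the further thylakoid list higher and 0 lower, 0 root markers higher and 0 Rubisco genes lower, and 1157 genes in all higher and 1001 lower; fewer calls follow from its construction. On log2(TPM + 1) without a filter, 0 Rubisco genes and 2999 genes in all were lower. The root marker list had 1 lower gene in that fit and without the low-count filter, and 0 to 1 when libraries were left out. Signs turned for 4 genes, none of them called in the comparison itself: Lhca5 was at 0.011 on TPM with a pseudocount of 1 (with and without the filter) or 0.1 and at -0.036 to 0.015 with libraries left out, PsbQ at -0.00052 to 0.043, PGR5 at -0.039 to 0.013 and the chromosome 1 ferredoxin at -0.014 to 0.019 with libraries left out and at -0.00024 without the low-count filter. With the replicate number as a block 24 members were higher and 3 lower, 24 because Lhcb1b passed; the labels do not say that the numbers pair libraries, and WT replicate 2 did not correlate best with its own number. The median log2 fold change of all genes stayed between -0.0019 and 0.0079 over the alternatives.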
